A study of Mus musculus with 12 samples.

Results

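L-685.458 is a small-molecule inhibitor of gamma-secretase, and its effect irrespective of oxygen is described here from 12 Illumina mouse bead arrays, which are all the arrays of the study. The 6 arrays of cells grown with the inhibitor were set against the 6 without it, with the oxygen level as a covariate, so 12 of 12 arrays were used. All cells came from the wild type CCE mouse embryonic stem cell line, of strain 129/Sv. Embryoid bodies (aggregates in which stem cells differentiate) were grown for 4 days, cells bearing Flk1, the VEGF receptor encoded by Kdr, were sorted, and these were cultured on collagen IV for 4 days. The 4 groups, each of 3 replicates, were normoxia (21% oxygen) with 4 µmol/l L-685.458, normoxia without it, hypoxia (1.5 to 2% oxygen) with 4 µmol/l L-685.458 and hypoxia without it. The labels name no vehicle. At the end, cells bearing CD31, the adhesion molecule encoded by Pecam1, were sorted and their RNA was measured. All groups share 1 cell line and both sorts, and per the series record these are biological replicates.

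Notch receptors are activated by ligands of the Delta-like and Jagged families on a neighbouring cell. Binding leads to cleavage by an ADAM protease and then by gamma-secretase, a membrane complex of presenilin, nicastrin, Aph1 and Psenen. The freed Notch intracellular domain enters the nucleus, joins the DNA-binding protein Rbpj and switches on targets such as the Hes and Hey repressor genes. In endothelium this pathway is known for promoting arterial over venous identity and for restraining tip cells, the leading cells of a vessel sprout. Gamma-secretase also cleaves other membrane proteins, among them ephrin-B1, VE-cadherin and the amyloid precursor protein.

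Between 13085 and 13901 probes were detected per array, and mean intensities ran between 522.3 and 628.6. Of 25697 probes, 14599 were detected (detection p under 0.05) on at least 3 of the 12 arrays and were tested, and they stand for 9879 named genes. Signals are log2 values after background correction and quantile normalization, and a log2 difference of 1 is a doubling. Signals of different probes do not rank genes by abundance. Of 9 markers of the sorted cells, 8 had a named probe and all 8 were kept. Pecam1 averaged 12.2 ± 0.33 with the inhibitor and 12.3 ± 0.27 without it (SD, n = 6 each), and Cdh5 (VE-cadherin) averaged 10.5 ± 0.31 with it and 10.8 ± 0.25 without it. The 6 pluripotency markers were kept too, as were 6 of 7 erythroid markers, 7 of 9 haematopoietic markers and 4 of 7 mural markers. Of cardiac markers 2 of 5 were kept, of neural 1 of 4 and of endoderm 1 of 5.

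Replicate 3 stood apart in all 4 groups. The first principal component (27.4% of the variance) gave the 4 replicate 3 arrays scores of 16.7 to 28.7, and the other 8 arrays -22.6 to 3.77. Within a group, replicates 1 and 2 correlated at 0.994 to 0.9949 over the probes, and replicate 3 correlated with either at 0.9779 to 0.9871. The median residual SD was 0.213 (log2) over 12 arrays and 0.136 over the 8 arrays left without replicate 3. List medians are given over all 12 arrays and over those 8, and single genes over those 8 for part of the genes named. Leaving out replicate 1 or replicate 2 from every group instead gave 0 calls. The calls over those 8 arrays therefore depend on which replicate is left out.

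Over 12 arrays 1 gene passed the test. Hey1, a transcriptional repressor of the Hairy family and a direct Notch target, fell by 2.06 on the log2 scale with the inhibitor (SE 0.21, 4.18-fold lower, limma adjusted p = 0.00357). That is 1 of 14599 probes, or 0.00685%, called lower, and 0 of 14599, or 0%, called higher (limma, Benjamini-Hochberg adjusted p under 0.05). At an unadjusted p under 0.05 there were 676 probes (4.63%), of which 315 had lower and 361 higher signal with the inhibitor. Within normoxia alone and within hypoxia alone 0 probes were called in either direction, with 299 (2.05%) and 591 (4.05%) at an unadjusted p under 0.05. The interaction of inhibitor and oxygen also gave 0 calls, with 263 probes (1.8%) at an unadjusted p under 0.05.

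Hey1 lies at chr3:8663359-8667038 (GRCm38.p6). In normoxia its log2 signal was 6.72, 6.76 and 7.43 with the inhibitor, against 9.24, 9.19 and 8.10 without it. In hypoxia it was 6.84, 6.59 and 7.27 with the inhibitor, against 9.18, 9.15 and 9.13 without it. All 6 arrays with the inhibitor lay below all 6 without it, and the smallest gap was on replicate 3 in normoxia. The change was -1.87 in normoxia and -2.25 in hypoxia, and the difference between them was -0.38 (SE 0.42, limma unadjusted p = 0.385). Leaving out any 1 of the 12 arrays kept the call, with a largest adjusted p of 0.0221. Leaving out replicate 1 from every group gave a change of -1.88 that did not pass (adjusted p = 0.929), and leaving out replicate 2 gave -1.86 (adjusted p = 0.9999). Leaving out replicate 3 gave a change of -2.44 and an adjusted p of 4.54e-06. Over 32 other settings the change lay between -2.44 and -1.79.

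The next 7 genes by p among those lower at both oxygen levels did not pass over 12 arrays. They include 2 arterial gap junction genes, a Notch ligand, an ephrin and a tip cell gene. Gja5 encodes connexin 40, and its largest signals were in hypoxia. In normoxia it read 5.61, 5.52 and 5.80 with the inhibitor, against 8.02, 7.88 and 5.97 without it. In hypoxia it read 6.52, 6.59 and 8.14 with the inhibitor, against 10.3, 10.4 and 9.47 without it. The groups did not overlap at either oxygen level, although replicate 3 in normoxia came close. The change was -2.30 (SE 0.41, limma adjusted p = 0.278). Over 8 arrays Gja5 fell by 3.06 (adjusted p = 0.00254), and without the single array of normoxia 3 it fell by 2.67 (adjusted p = 0.00698). With each of the 12 arrays left out in turn, that was the 1 omission at which Gja5 passed. A second kept probe of Gja5 had a change of -1.76 (adjusted p = 0.49985) and was detected on 1 of 6 arrays with the inhibitor and 5 of 6 without it. The third was detected on 0 of 6 arrays with the inhibitor and 3 of 6 without it, all in hypoxia. It has only a bound on the means, without an error, of at least 1.07-fold lower with the inhibitor (limma adjusted p = 0.637).

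Gja4, which encodes connexin 37, read 8.51, 8.43 and 8.84 with the inhibitor in normoxia, against 9.93, 10.0045 and 9.40 without it. In hypoxia it read 7.54, 7.91 and 8.77 with the inhibitor, against 9.22, 9.16 and 9.70 without it. Again no array with the inhibitor reached one without it at the same oxygen level. The change was -1.24 (SE 0.19, limma adjusted p = 0.199), close to equal in normoxia (-1.18) and hypoxia (-1.29). Over 8 arrays Gja4 fell by 1.47 (adjusted p = 0.000628), and without the single array of hypoxia with inhibitor 3 it fell by 1.38 (adjusted p = 0.0198). Of 12 single-array omissions, that was the 1 at which Gja4 passed.

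Dll4 encodes the Delta-like ligand of arterial and tip cells, and it was dim. In normoxia it read 4.67, 4.54 and 4.82 with the inhibitor, against 5.72, 5.40 and 5.17 without it. In hypoxia it read 4.89, 5.01 and 4.85 with the inhibitor, against 6.04, 6.29 and 5.11 without it. It was detected on 0 of 6 arrays with the inhibitor and on 4 of 6 without it. Its change therefore has only a bound on the means, at least 1.36-fold lower with the inhibitor, and it did not pass (limma adjusted p = 0.50). This bound sets the mean without the inhibitor against the lowest signal detected on each array with it, and it carries no error. On replicate 3 the signals without the inhibitor (5.17 and 5.11) lay below those lowest detected signals (5.24 in normoxia and 5.196 in hypoxia). No fall is bounded on replicate 3. Over 8 arrays Dll4 fell (adjusted p = 0.00729).

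Esm1, a proteoglycan gene of tip cells, had a change of -0.86 (SE 0.15, limma adjusted p = 0.278) and Efna1, the ephrin-A1 gene, of -0.65 (SE 0.14, adjusted p = 0.521). Both overlapped in normoxia through replicate 3. Efna1 read 7.35, 7.46 and 8.14 there with the inhibitor, against 8.33, 8.34 and 7.89 without it. Over 8 arrays both fell, by 0.97 for Esm1 and 0.88 for Efna1, each at an adjusted p of 0.00194. Without the single array of normoxia with inhibitor 3 both fell as well, at adjusted p of 0.00135 for Esm1 and 0.0261 for Efna1. For each of these genes that was the 1 passing case of 12 single-array omissions. Armcx6, on the X chromosome, had a change of -0.91 (adjusted p = 0.212), and its other 2 kept probes had -0.37 and -0.24. Ggct, an enzyme gene of glutathione breakdown, had -0.49 (adjusted p = 0.50) and did not pass over 8 arrays either (adjusted p = 0.138). Other kept probes of Ggct had -0.06, -0.51 and -0.09.

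**Figure D1:**
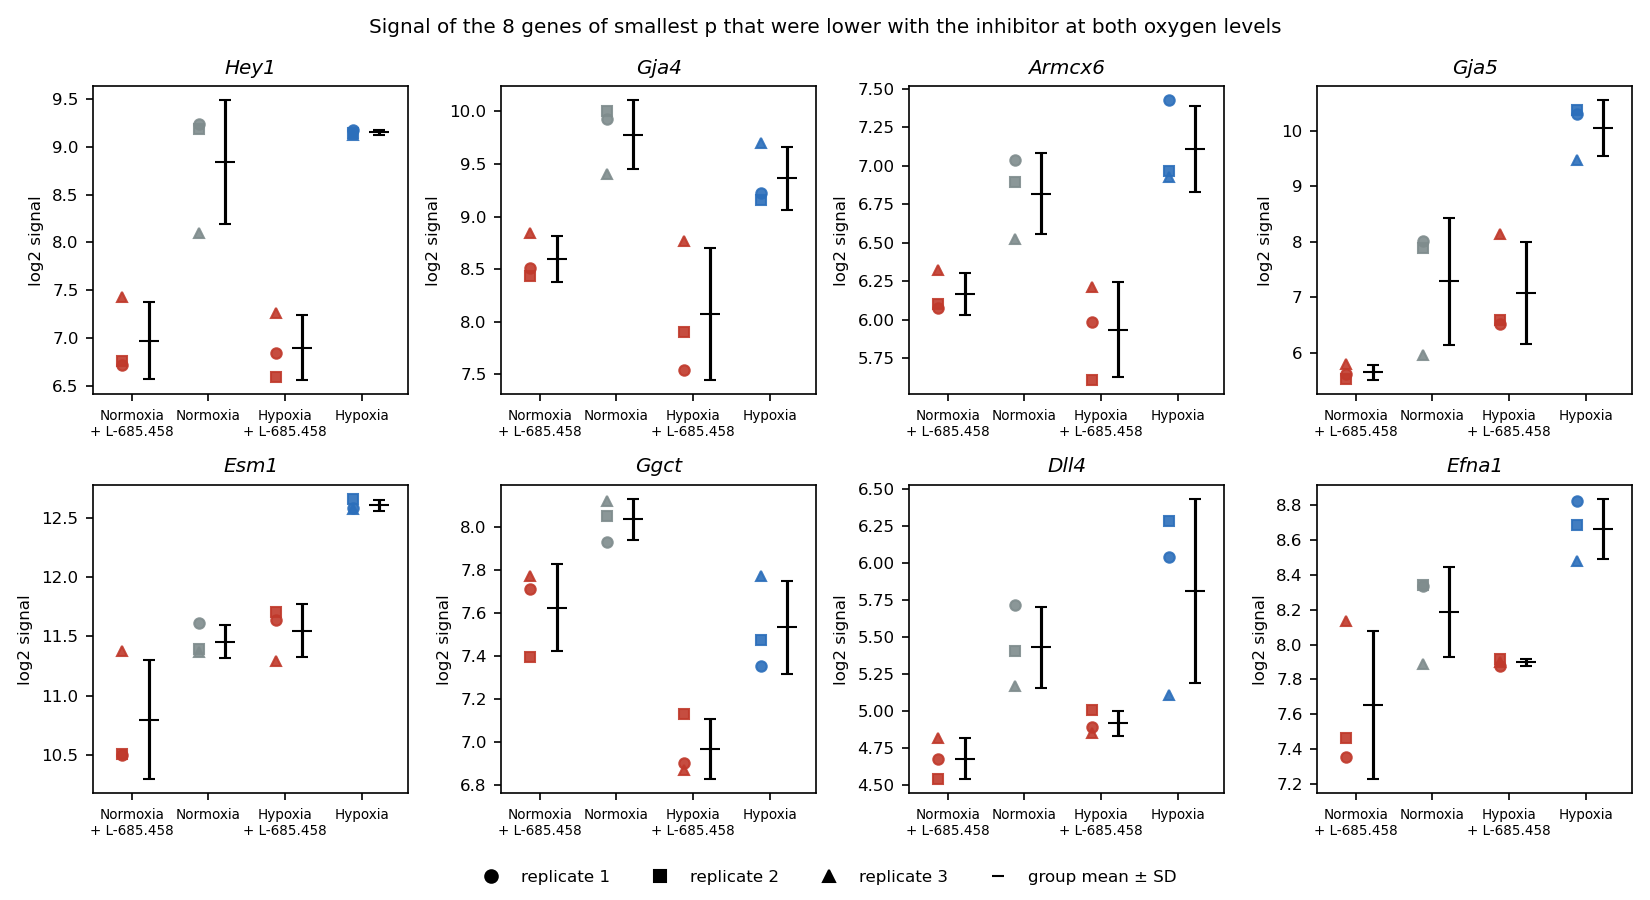
Log2 signal of each of the 12 arrays (y axis) in the 4 groups (x axis) for the 8 genes of smallest p that were lower with L-685.458 at both oxygen levels, with the group mean and SD (n = 3) beside the points. Hey1, Gja4, Armcx6, Gja5, Ggct and Dll4 do not overlap at either oxygen level, and replicate 3 (triangles) gives the smaller gaps for Hey1, Gja4 and Gja5.

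Of genes higher at both oxygen levels, none passed over 12 arrays, and the 8 of smallest p are given as values. Vgll2, a cofactor of TEAD transcription factors, had the largest change, 1.25 (SE 0.26, 2.38-fold, limma adjusted p = 0.50). In normoxia it read 9.02, 9.07 and 8.67 with the inhibitor, against 7.99, 8.03 and 6.95 without it. In hypoxia it read 7.82, 7.60 and 8.88 with the inhibitor, against 7.07, 7.25 and 6.25 without it. The groups did not overlap at either oxygen level, and over 8 arrays Vgll2 rose by 0.78 (adjusted p = 0.0329), a smaller change than over 12.

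Fos, a subunit of the AP-1 transcription factor, had a change of 0.86 (SE 0.19, limma adjusted p = 0.637), with 0.50 in normoxia and 1.22 in hypoxia. Efnb1, which encodes ephrin-B1, read 9.42, 9.60 and 9.07 with the inhibitor in normoxia, against 8.92, 8.90 and 8.89 without it. In hypoxia it read 8.63, 8.65 and 9.05 with the inhibitor, against 8.06, 8.24 and 8.49 without it. Efnb1 did not overlap at either oxygen level, and its change was 0.49 (SE 0.11, adjusted p = 0.637). Over 8 arrays Fos rose by 0.80 and Efnb1 by 0.54, both at an adjusted p of 0.0329. Ssh3, a slingshot phosphatase gene that acts on cofilin, was detected on 5 of 6 arrays with the inhibitor and 0 of 6 without it. Its change has only a bound on the means, without an error, of at least 1.37-fold higher. On normoxia with inhibitor 3 Ssh3 read 4.93, below the lowest detected signal of normoxia 3 (5.21), so no rise is bounded there. Ssh3 did not pass over 12 arrays (limma adjusted p = 0.50). Over 8 arrays the adjusted p was 0.0277. Without normoxia with inhibitor 3 it was 0.0134, the 1 passing case of 12 single-array omissions. The other 4 did not pass in either set of arrays. They were Svep1, an extracellular matrix gene (0.73), Sema5a, a semaphorin gene (0.45), Slc2a1, the glucose transporter GLUT1 (0.38), and Fam168a (0.36), at adjusted p of 0.521 to 0.683 over 12 arrays.

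**Figure D2:**
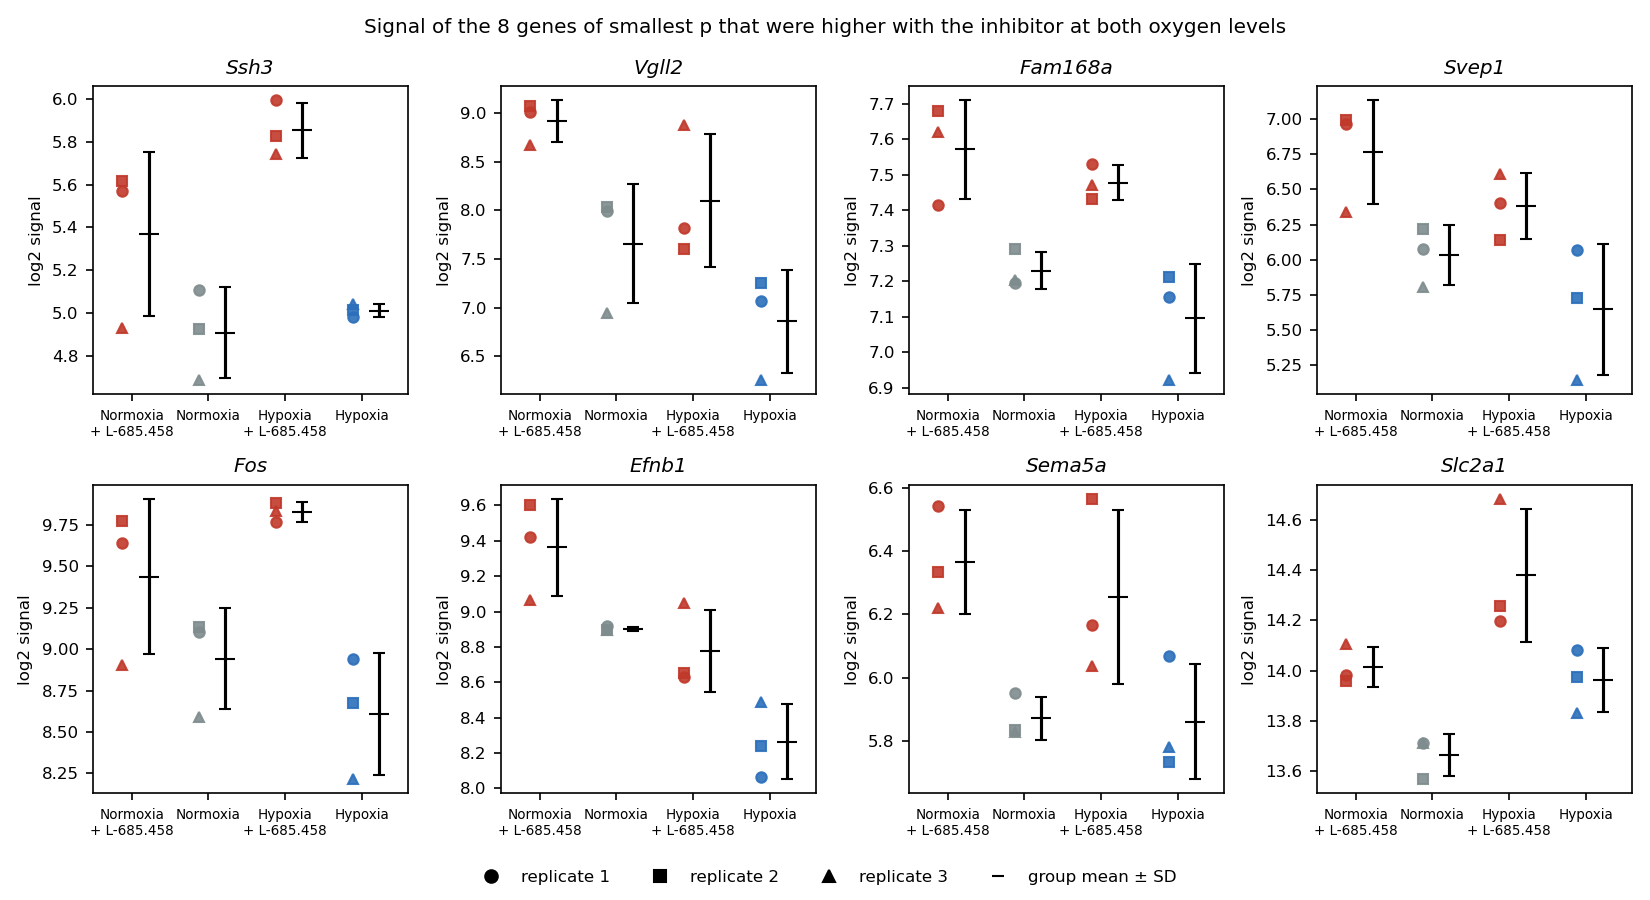
Log2 signal of each array (y axis) in the 4 groups (x axis) for the 8 genes of smallest p that were higher with L-685.458 at both oxygen levels, with the group mean and SD (n = 3). Vgll2, Fam168a, Svep1, Efnb1 and Slc2a1 do not overlap at either oxygen level, and none of the 8 passed over 12 arrays.

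Taking every gene, 25 of 9879 (0.253%) had all 3 arrays with the inhibitor below all 3 without it at both oxygen levels, and 33 (0.334%) had them above. Another 24 probes of 14599 (0.164%) separated in opposite directions at the 2 oxygen levels. With 3 arrays against 3, some genes separate at both levels by chance, and these shares were not tested against that. For genes picked by smallest p, lack of overlap is not separate evidence. Genes of the same sign at both levels numbered 2933 lower (29.7%) and 2754 higher (27.9%). The normoxia and hypoxia changes share no array, and across the 9879 genes the Pearson correlation between them was 0.363 and the Spearman one 0.249, as a description over genes that are not independent. The median change of all genes was -0.003, and 49 genes were lower and 33 higher by more than 1.5-fold as point values.

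**Figure D3:**
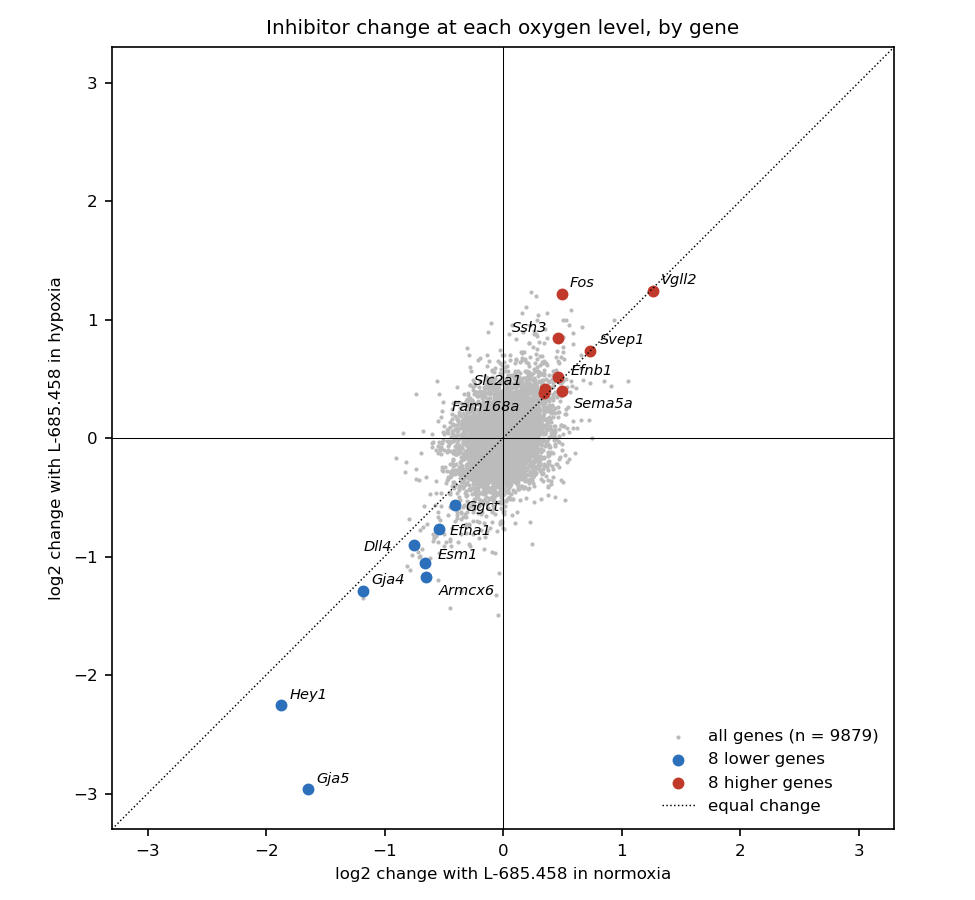
Log2 change with L-685.458 in normoxia (x axis) and in hypoxia (y axis) for 9879 genes, each the mean of 3 arrays with the inhibitor minus the mean of 3 without it, with the dotted line marking equal change. Hey1 and Gja5 lie farthest from the origin, at -1.87 and -2.25 for Hey1 and -1.64 and -2.96 for Gja5, and Vgll2 lies farthest in the other direction among the named genes.

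Over the 8 arrays without replicate 3, 27 genes (0.273% of 9879) fell and 17 (0.172%) rose with the inhibitor. Hey1 was the 1 gene of these 44 that was also called over 12 arrays. The 8 arrays are among those 12, so agreement in sign is partly built in. Of the 44 genes, 42 had the same sign over 12 arrays. The exceptions were Capn5, a calpain protease gene, and Aqp1, a water channel gene, which rose over 8 arrays by 0.62 and 0.46 but had changes of -0.12 and -0.17 over 12. On replicate 3 Aqp1 went the other way, at 10.6 with the inhibitor against 11.4 without it in normoxia, and 9.91 against 11.98 in hypoxia. Among the 27 were Depp1, a FOXO target, Vegfc, the lymphatic growth factor, and the chemokine receptor Cxcr4. Lyve1, a hyaluronan receptor of lymphatic endothelium, and Angpt2, the Tie2 ligand angiopoietin-2, were there too. Cxcr4 was dim, and was detected on 1 of 6 arrays with the inhibitor and 4 of 6 without it. Depp1, Vegfc, Lyve1, Angpt2, Capn5 and Aqp1 were chosen after their values were seen.

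Depp1 read, in normoxia, 6.92, 6.41 and 8.53 with the inhibitor, against 9.12, 8.94 and 7.34 without it. In hypoxia it read 9.31, 9.19 and 10.0016 with the inhibitor, against 10.9, 11.1 and 10.6 without it. Replicates 1 and 2 were lower with the inhibitor at both oxygen levels, and replicate 3 was higher with it in normoxia. The change was -1.26 (limma adjusted p = 0.833) over 12 arrays, and over 8 Depp1 fell by 2.04 (adjusted p = 0.00194).

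Promoters are shown for 2 of the lower connexin genes, the ligand Dll4 and the higher ephrin Efnb1, because Rbpj binds the core TGGGAA at Notch targets. Each is the 250 bases before the RefSeq gene start (GRCm38.p6), 5′ to 3′ on the gene's strand. Capitals mark TGGGA, the first 5 letters of the core, or its reverse complement TCCCA.
Gja4, chr4:127314040-127314289, minus strand: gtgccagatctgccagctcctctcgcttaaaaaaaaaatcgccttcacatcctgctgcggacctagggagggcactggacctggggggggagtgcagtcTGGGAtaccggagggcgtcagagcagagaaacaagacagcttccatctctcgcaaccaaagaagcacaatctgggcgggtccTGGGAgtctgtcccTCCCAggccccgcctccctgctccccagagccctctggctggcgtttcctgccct
Gja5, chr3:97032152-97032401, plus strand: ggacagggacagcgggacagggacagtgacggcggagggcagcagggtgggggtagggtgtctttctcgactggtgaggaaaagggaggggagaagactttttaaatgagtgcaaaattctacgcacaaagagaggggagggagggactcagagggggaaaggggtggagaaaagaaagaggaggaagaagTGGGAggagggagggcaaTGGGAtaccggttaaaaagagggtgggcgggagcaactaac
Dll4, chr2:119325534-119325783, plus strand: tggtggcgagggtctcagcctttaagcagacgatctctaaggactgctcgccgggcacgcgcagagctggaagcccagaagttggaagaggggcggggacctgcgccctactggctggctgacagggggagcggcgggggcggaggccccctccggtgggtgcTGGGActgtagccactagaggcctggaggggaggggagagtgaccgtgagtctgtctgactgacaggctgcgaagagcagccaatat
Efnb1, chrX:99135811-99136060, plus strand: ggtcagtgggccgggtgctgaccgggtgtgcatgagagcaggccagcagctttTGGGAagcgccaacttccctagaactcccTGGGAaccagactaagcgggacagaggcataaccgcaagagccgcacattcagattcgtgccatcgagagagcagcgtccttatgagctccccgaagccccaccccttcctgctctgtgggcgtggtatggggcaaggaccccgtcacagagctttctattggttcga

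The 6-letter core TGGGAA was searched on both strands and contains TGGGA, so its matches are also matches of the shorter word. It was in the window of Efnb1 2 times, and of Gja4, Gja5 and Dll4 0 times. Among the 8 lower genes, 7 had a promoter sequence (Hey1 did not) and 0 held the core. Among the 8 higher genes 3 held it, namely Svep1, Sema5a and Efnb1. The core was in 21.6% and TGGGA in 55.1% of all 32851 promoter windows of this length. A match is a description of letters, and no match says only that these letters are not in this window.

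The Notch list holds direct targets and genes often used to report the pathway. Of its 36 entries 25 were kept, and 1, Hey1, was called. Their median change was -0.05, with 15 of 25 below 0, against -0.003 for all genes and 51% of them below 0. Over 8 arrays the median was -0.14, with 18 of 25 below 0 and Hey1 again the 1 called. Hes1, a Hairy repressor, had a change of -0.21 (SE 0.18) and Hey2 0.06 (SE 0.14), both at a limma adjusted p of 0.998, and Heyl had -0.07. Nrarp, a feedback inhibitor of Notch, had -0.50 (SE 0.27, adjusted p = 0.998) and read 9.12, 9.02 and 9.34 with the inhibitor in normoxia, against 9.84, 9.75 and 8.91 without it. Nrarp therefore overlapped through replicate 3. Hes5 and Rbpj had a named probe that was not kept.

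Among the receptors and ligands, Notch1 had a change of -0.21 (SE 0.08, limma adjusted p = 0.987) and Notch4 -0.32 (SE 0.14, adjusted p = 0.998), without passing. Jag1 had 0.26 and Jag2 0.11. The 5 kept genes of gamma-secretase itself had a median of -0.02, and -0.03 over 8 arrays, with Psen2 (presenilin) at -0.13, Ncstn (nicastrin) at -0.02, Psenen at 0.05 and Aph1a at -0.19. Of 24 kept genes for substrates of the enzyme, 0 were called over 12 arrays, and the median was -0.03. Over 8 arrays the median was -0.09 and Efnb1 was the 1 substrate gene called. The arrays measure RNA and not cleavage of these proteins.

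The arterial list had a lower median than all genes. Of its 30 kept genes, 25 had a change below 0 (83.3%, against 51% of all genes), the median was -0.32 against -0.003, and 1 of 30 was called, where 0.0101% of all genes were called lower. The median was -0.25 in normoxia, -0.33 in hypoxia and -0.31 over 8 arrays. The number below 0 was smaller over 8 arrays, at 21 of 30, and was 24 of 30 without the array of hypoxia with inhibitor 3. Over those 8 arrays 7 of 30 fell, namely Gja5, Hey1, Depp1, Gja4, Vegfc, Dll4 and Cxcr4, where 0.273% of all genes did. Efnb2, the arterial ephrin-B2, had a change of -0.40 (SE 0.11, limma adjusted p = 0.833), and Unc5b, a netrin receptor of arteries and tip cells, -0.24 (SE 0.12). Sox17 (-0.14), Gata2 (-0.08), Nrp1 (-0.01) and Cxcl12 (0.17) did not pass over either set of arrays. The list shares Hey1 and Efnb2, among others, with the Notch list, so the lists are not separate evidence. Its members were chosen with earlier results of these data known. The shares beside those of all genes are therefore a description and not a test.

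**Figure D4:**
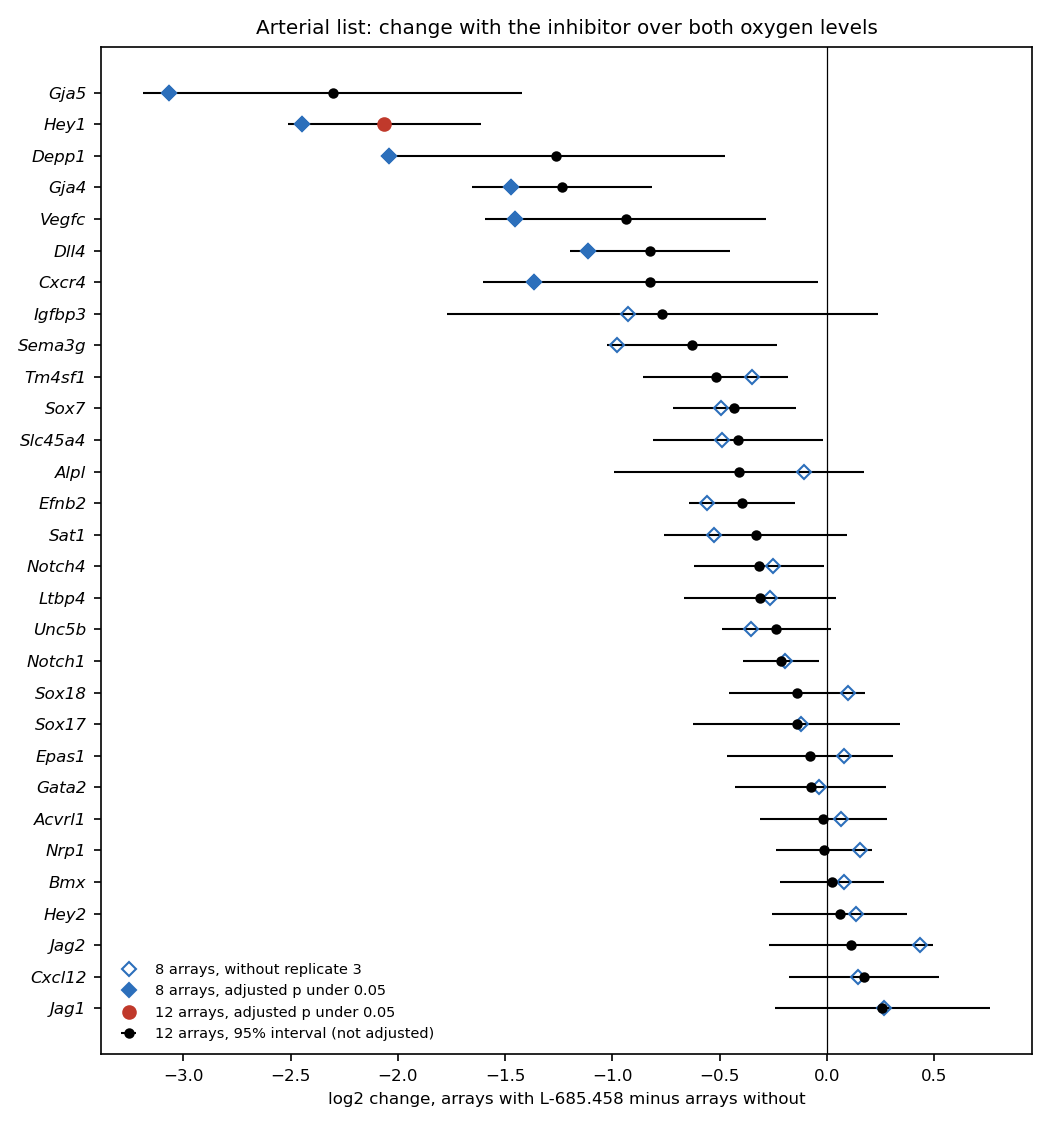
Log2 change with L-685.458 (x axis) for the 30 kept genes of the arterial list (rows), with filled circles and 95% intervals for 12 arrays and diamonds for the 8 arrays without replicate 3. Hey1 is the 1 gene called over 12 arrays, 7 diamonds are filled for an adjusted p under 0.05, and 25 of 30 circles lie left of 0. The list was chosen with earlier results of these data known.

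Genes of general endothelial identity had a median of -0.14, with 28 of 33 below 0 and 0 called over 12 arrays. Over 8 arrays that median was -0.03, with 21 of 33 below 0. Pecam1, Cdh5 and Kdr had changes of -0.14, -0.29 and 0.08. Tip cell genes had a median of -0.07 with 18 of 25 below 0, and over 8 arrays the median was -0.09 and Esm1, Dll4, Angpt2 and Cxcr4 fell. Venous and lymphatic genes had a median of 0.01 with 7 of 17 below 0. It was 0.17 over 8 arrays, with 5 of 17 below 0, and 0.15 without the single array of hypoxia with inhibitor 3, with 4 of 17 below 0. Lyve1, a hyaluronan receptor of lymphatic endothelium, was the 1 member called over 8 arrays and fell by 0.82 (limma adjusted p = 0.0329). Nr2f2, the venous transcription factor COUP-TFII, had 0.30 over 12 arrays (SE 0.28, limma adjusted p = 0.998) and 0.75 over 8 (adjusted p = 0.0908). Ephb4, the venous ephrin receptor, had 0.01. In sorted bulk RNA, fewer arterial cells and less arterial RNA per cell cannot be told apart.

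Lists of markers of other cells were measured beside these. Pluripotency genes had a median of -0.68 with 15 of 19 below 0, -0.26 over 8 arrays and -0.41 without the array of hypoxia with inhibitor 3. Their summed linear signal was 7584 to 27260 with the inhibitor and 15400 to 30900 without it, and the lowest values were on replicate 3 with the inhibitor. Mural and smooth muscle genes had a median of 0.16 with 11 of 16 above 0, summed signal 88010 to 100100 with the inhibitor and 64630 to 95210 without it, and the defining markers Cnn1, Myh11 and Rgs5 were not kept. Over 8 arrays their median was 0.04 with 7 of 16 below 0, and without the array of hypoxia with inhibitor 3 it was 0.11. Mesenchymal genes had 0.12 with 13 of 17 above 0, led by Lum (0.97, adjusted p = 0.783) and Dcn (0.80, adjusted p = 0.752), both matrix proteoglycans. Without the array of hypoxia with inhibitor 3 the mesenchymal median was -0.02 with 9 of 17 below 0, and over 8 arrays it was -0.06 with 10 of 17 below 0. Haematopoietic genes had 0.09 with 8 of 19 below 0, and -0.02 over 8 arrays with 10 of 19 below 0. The part of these cells in the results was not tested.

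For 4 further lists the value without the array of hypoxia with inhibitor 3 is given beside that over 12 arrays. Genes of the unfolded protein response and ATF4 had a median of 0.25 with 26 of 27 above 0, at 0.07 in normoxia and 0.48 in hypoxia, and 0.05 without the array of hypoxia with inhibitor 3. Its summed signal for this list was 68120, and the other 5 arrays with the inhibitor had 30820 to 36250, against 30080 to 33520 without it. Inflammatory genes had a median of 0.14 and 0.06 without that array, cholesterol genes -0.18 and -0.05, and glycolysis genes -0.16 and -0.02. In the glycolysis list the entry Gpi1 was matched by synonym to Pigq, which is not a glycolysis gene, and Eno1 to Eno1b. Over the 8 arrays without replicate 3 the medians were 0.04 for the unfolded protein response list, 0.01 for inflammatory genes, -0.03 for cholesterol genes and -0.02 for glycolysis genes. None of these 4 lists had a member called over 12 arrays. Trib3, an ATF4 target, had 0.74 (limma adjusted p = 0.998) and Ddit4, an inhibitor of mTORC1, -0.29 (adjusted p = 0.683).

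**Figure D5:**
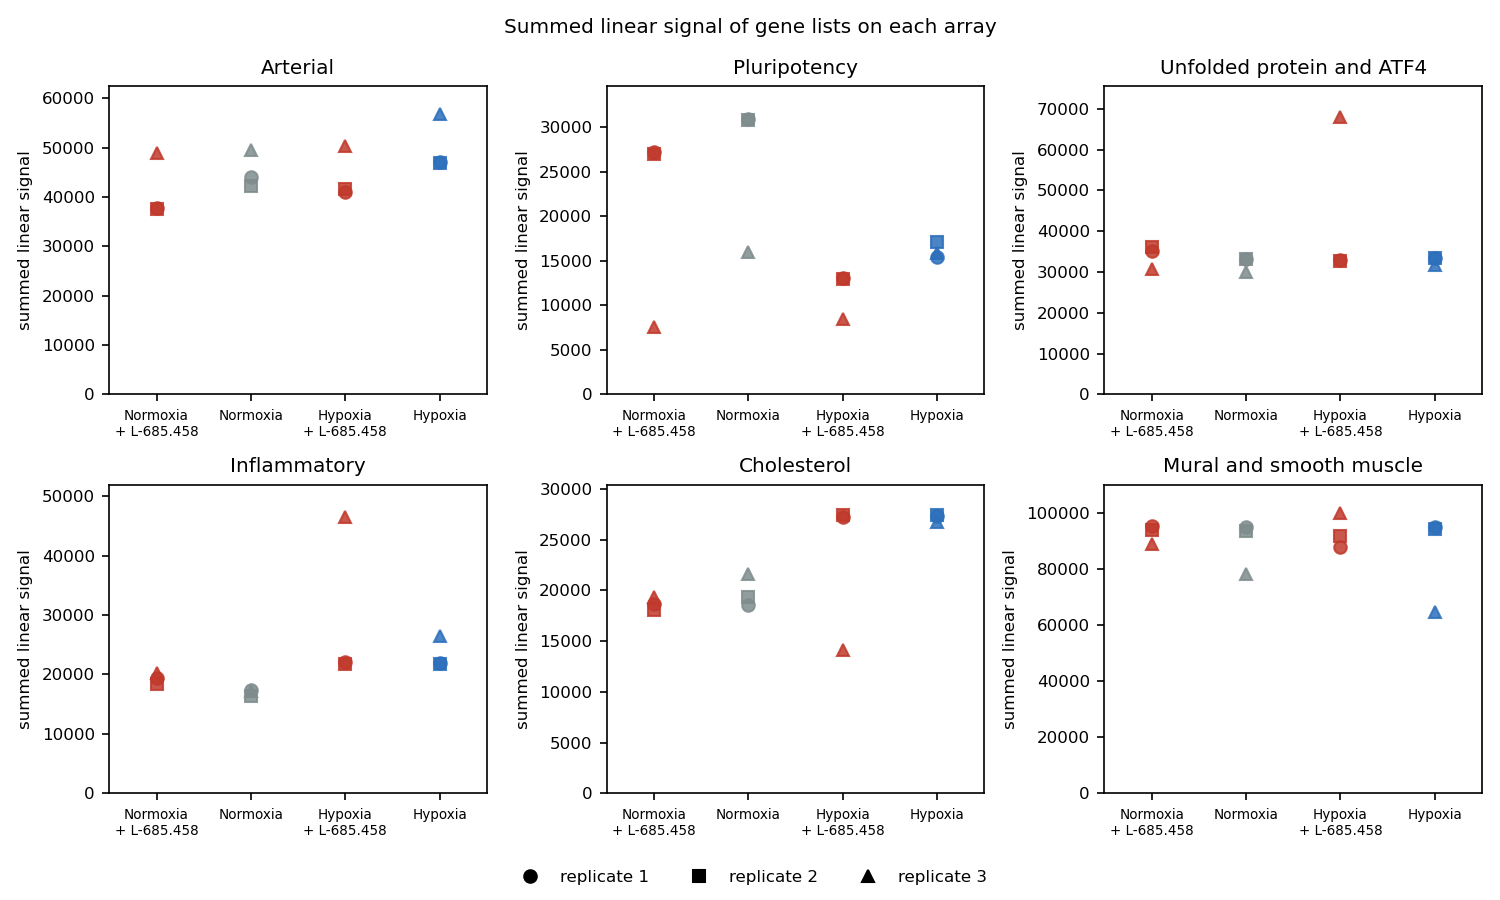
Summed linear signal (y axis, from 0) of the kept genes of 6 lists on each array, by group (x axis) and with 1 symbol for each replicate number. The array of hypoxia with inhibitor 3 stands alone for unfolded protein and ATF4 genes (68120), inflammatory genes (46540) and cholesterol genes (14110).

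The test over 12 arrays includes the spread of replicate 3, which was larger than that between replicates 1 and 2, and the calls over 8 arrays rest on 2 arrays a group.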

How the data were processed

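The deposited non-normalized table holds a linear intensity and a detection p-value for each probe and array, per the file headers. The authors' scanner software, BeadStudio per the submitters' processing notes, had subtracted background, since 23.3% of intensities are below 0. The authors' processed table, a linear intensity floored at 20, served as an alternative only. How it was scaled is not stated.

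Background was corrected with limma 3.58.1 (R 4.3.3) by the normal-exponential model fitted from detection p-values, an offset of 16 was added, and arrays were quantile normalized and taken as log2. Probes with a detection p under 0.05 on at least 3 of 12 arrays were kept. Each was fitted with oxygen and inhibitor as terms (9 residual degrees of freedom), with Benjamini-Hochberg adjustment over 14599 probes and a threshold of 0.05. A fit of 4 group means gave the changes within each oxygen level and the interaction. A gene is its kept probe of highest mean signal. Named are up to 12 called genes per direction, or up to 8 of smallest p where fewer than 5 were called, a fixed panel, up to 4 called list members, and up to 3 of smallest p in a list without calls. The fit was tested on simulated data. Members and lists were chosen with earlier results of these data known. Arrays have no read depth, so their number and the signal over background limit precision. Gene positions and promoters are from RefSeq (GRCm38.p6). Figures were drawn with Python and matplotlib.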

Additional observations from a re-analysis of the deposited data

Results flagged for a closer look

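Within the 6 arrays of one treatment, 5 values of named genes lay far from the other 5, by a gap over Dixon's 95% critical share of the group's whole range. Without the inhibitor these were Hey1 on normoxia 3, at a log2 signal of 8.097, Fam168a on hypoxia 3, at 6.921, Heyl on hypoxia 3, at 4.521, and Acta2 on hypoxia 3, at 15.47. With the inhibitor it was Fos on normoxia with inhibitor 3, at 8.904. Each was the lowest of its 6 arrays, and all 5 are replicate 3 arrays. Of 88 groups of 6 examined, chance alone flags about 5%.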

How the results depend on the processing

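The main comparison called 1 probe, and 24 of 32 other settings gave a count within 1.5 times of that. Array weights gave 17 (13 lower, 4 higher), also counted by the rule of the same direction at both oxygen levels, and normoxia arrays alone gave 0. Leaving out single arrays or one replicate number from all groups gave 0 to 62, both for that count and for the count of the same direction. The ends are 0 without replicate 1 or 2 and 62 without replicate 3, against 2 without normoxia 3, 4 without normoxia with inhibitor 3 and 2 without hypoxia with inhibitor 3. For the inhibitor in hypoxia an offset of 50 gave 2 calls and the left-out arrays 0 to 39, and for the inhibitor in normoxia the left-out arrays gave 0 to 13. The interaction stayed at 0 in 19 settings. Hey1 kept its call in 29 of 32 settings, and lost it with normoxia arrays alone (-1.87, limma adjusted p = 0.9998) and without replicate 1 or 2. The 16 lower or higher genes kept their sign in every setting run for them. They were picked by smallest p and by the same sign at both oxygen levels, and the settings reuse these arrays. Their kept sign is therefore largely built in and is not separate evidence.

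The labels do not say that a replicate number marks a shared culture. Same-numbered arrays with and without the inhibitor deviated together in normoxia (r of 0.393, 0.381 and 0.642) but not in hypoxia (0.0824, 0.0275 and 0.0527). The best r with another number was 0.38, 0.361 and -0.492 in normoxia, and 0.0766, 0.035 and -0.00668 in hypoxia. Thus 5 of 6 arrays with the inhibitor correlated best with their own number, but for replicates 1 and 2 only by small margins. The numbers were not taken as pairs. With the replicate block 1 probe was called, Hey1 (adjusted p = 0.0323), and no call changed. A chip block was not run, because no chip is given for the arrays. Dim probes such as Dll4 and Ssh3 have only a bound.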

Other observations

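Further gene lists had no member called over 12 arrays (limma), and their medians are given over 12 arrays and over the 8 arrays without replicate 3. Targets of hypoxia-inducible factor had a median change of -0.04 with 15 of 28 below 0, and 0.03 over 8 arrays with 11 of 28 below 0. S-phase genes had -0.04 with 10 of 19 below 0, and 0.08 over 8 arrays with 2 of 19 below 0. G2/M genes had 0.03 with 6 of 17 below 0, and 0.10 over 8 arrays with 0 of 17 below 0. A list of cell cycle inhibitors mixed with D-type cyclins and Myc family genes had 0.01 and 0.02 over 8 arrays. Targets of p53 had 0.04 and 0.01 over 8 arrays. A list of heat shock and proteasome subunit genes had -0.02 and -0.01 over 8 arrays. Wnt pathway genes had -0.02 and -0.09 over 8 arrays, BMP and TGF-beta genes -0.03 and 0.05, and interferon genes 0.04 and -0.08. Genes of the VEGF axis had -0.07 with 10 of 15 below 0, and -0.02 over 8 arrays, where Vegfc and Angpt2 fell. Erythroid genes had 0.07 and 0.14 over 8 arrays, cardiac muscle genes 0.06 and 0.10, endoderm genes -0.10 and -0.07 with Cxcr4 called lower over 8, and neural genes -0.09 and -0.09. The adrenomedullin list had 4 kept genes and a median of -0.02 with 2 of 4 below 0, 0.18 over 8 arrays with 0 of 4 below 0, and 0.12 without the array of hypoxia with inhibitor 3. Adm itself had 0.01 over 12 arrays (SE 0.23).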
